A study of Mus musculus with 33 samples.

Results

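Laminins are cross-shaped trimers of one α, one β and one γ chain that polymerise into the sheet of the basement membrane. Integrins are receptors of one α and one β chain that grip laminin, fibronectin, collagen and other ligands outside the cell and join them to the actin skeleton inside it. In the early mouse embryo the laminin made of the α1, β1 and γ1 chains is laid down by the endoderm and trophectoderm, and the β1 integrins are needed for the embryo to organise around it. Embryoid bodies, the aggregates that embryonic stem (ES) cells form in suspension, build such a basement membrane beneath an outer endoderm.

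The genes described here are all rows of the count table named as a laminin chain (Lama, Lamb or Lamc with a number) or as an integrin chain (Itga or Itgb with a number or letters), with 1 integrin α gene left out. They are 38 of 24391 genes. There were 11 laminin chains (5 α, 3 β and 3 γ), 17 integrin α chains, 9 integrin β chains and Itgbl1, whose product resembles an integrin β chain and is not a subunit.

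RNA came from ES cells of a CAST/Ei x 129/Sv/Jae cross, in one line labelled wildtype (WT) and another labelled RepB, whose name refers to the B repeat of Xist, an edit on which the labels give no detail. In both lines the cells were first kept with LIF and serum on irradiated embryonic fibroblasts, then freed of these feeders, grown as embryoid bodies and plated on gelatin. One polyA library was made per line on day 0 and on days 5, 6, 7, 8 and 10. There were no replicate cultures, so a p-value here covers only spread within a single time course. For the tests between lines and against day 0 this is the spread of the line difference over days. For slopes it is the spread around straight lines. Library totals were 3594551 to 17773138 counts. The WT library was 1.11 times as deep as the RepB library on day 0 and 2.07 to 3.35 times as deep on the later days. Levels are given as CPM, the count divided by the library total and scaled to one common size, on which 3 counts correspond to 0.169 to 0.835 CPM. Lines were compared over days with edgeR's quasi-likelihood test, with Benjamini-Hochberg adjustment over all genes tested and a threshold of 0.05. These are bulk samples, so fewer cells of a type and less RNA per cell cannot be told apart.

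The labels call the day 0 cells ES cells, and the summed level of 6 naive ES cell markers (Pou5f1, Nanog, Sox2, Esrrb, Zfp42 and Klf2) on day 0 was 4469 CPM (WT) and 5012 CPM (RepB). On day 10 the sum was 230.5 and 378.8 CPM. The summed level of 10 fibroblast and feeder markers, led by the collagen genes Col1a1 and Col1a2, on day 0 was 897.5 CPM (WT) and 1000 CPM (RepB). It was 76.6 and 62.5 CPM on day 5, and 9183 and 13680 CPM on day 10.

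Of the 38 genes, 27 reached 5 CPM in at least 1 library. A further 6 (Itga10, Itga2, Itgae, Itgam, Itgb2 and Lamc3) peaked between 1 CPM and 3.91 CPM. The other 5 (Itgad, Itgax, Itgb2l, Itgb6 and Itgbl1) reached 1 CPM in no library, and Itgb2l had no count in any. In each library 25 to 32 of the 38 genes were at 1 CPM or more. The filter on low counts passed 33 of them for the fit of 12 libraries and 26 for the fit of the 10 libraries from day 5 on.

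To rank genes of different size, CPM was divided by the exon length in kilobases. On that scale the highest mean over all 12 libraries, day 0 and both lines included, was that of Itgb1, the common β1 partner of many α chains, at 145 CPM per kb. Lamc1 (66.5 CPM per kb), Lamb1 (55.6) and Lama5 (45.3) led the laminins by this mean. Among integrins, Itgb1 was followed by Itgb5 (40.0), Itga5 (39.7), Itga3 (33.2), Itga6 (21.1) and Itgav (8.06). Itgb5 and Itga5 could not be ordered, since both varied more than 2-fold over the days. The order of the α chains differed by day. On day 0 Itga6 led them, at 36.03 CPM per kb in WT and 36.88 in RepB, before Itga5 (26.69 and 28.19) and Itga3 (13.02 and 13.01). On day 5 Itga3 led (36.9 and 27.1), and on day 10 Itga5 (58.6 and 59.4).

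The promoters of 5 genes are shown, chosen for their time courses below from the genes with a matched RefSeq promoter. Lama1, Lama4 and Lamc1, whose courses are also described below, had no such match. Of those shown, Itgb1, Itgb5 and Lamb1 were higher after day 0 and had a rising slope from day 5 on. Itga4 had a steep slope, and Itgb7 was the 1 gene with a falling slope. Each is the 250 bases before the annotated start in RefSeq (GRCm38.p6), read 5′ to 3′ on the gene's strand. Capitals mark the letters GGGCGG on either strand (the GC box, a motif of Sp1-family factors).
Itgb1, chr8:128685404-128685653, plus strand: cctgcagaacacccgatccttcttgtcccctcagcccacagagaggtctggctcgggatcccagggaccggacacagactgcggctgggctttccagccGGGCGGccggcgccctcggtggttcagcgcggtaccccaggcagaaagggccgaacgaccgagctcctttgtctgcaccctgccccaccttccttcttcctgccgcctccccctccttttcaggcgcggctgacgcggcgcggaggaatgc
Itgb5, chr16:33829415-33829664, plus strand: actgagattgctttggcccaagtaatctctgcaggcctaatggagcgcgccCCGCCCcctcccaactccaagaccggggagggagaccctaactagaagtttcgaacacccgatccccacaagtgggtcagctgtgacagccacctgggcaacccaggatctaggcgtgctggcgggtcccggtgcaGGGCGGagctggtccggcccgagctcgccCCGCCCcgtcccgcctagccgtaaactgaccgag
Lamb1, chr12:31265043-31265292, plus strand: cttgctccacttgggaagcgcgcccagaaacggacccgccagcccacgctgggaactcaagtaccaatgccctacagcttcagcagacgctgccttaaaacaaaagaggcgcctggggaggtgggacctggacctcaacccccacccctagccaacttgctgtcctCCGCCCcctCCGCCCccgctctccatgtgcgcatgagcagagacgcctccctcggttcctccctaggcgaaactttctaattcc
Itga4, chr2:79255176-79255425, plus strand: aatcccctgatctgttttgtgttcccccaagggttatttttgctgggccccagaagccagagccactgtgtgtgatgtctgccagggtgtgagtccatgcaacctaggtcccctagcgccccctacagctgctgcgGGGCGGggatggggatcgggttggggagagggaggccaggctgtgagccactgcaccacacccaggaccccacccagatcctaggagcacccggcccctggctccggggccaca
Itgb7, chr15:102231936-102232185, minus strand: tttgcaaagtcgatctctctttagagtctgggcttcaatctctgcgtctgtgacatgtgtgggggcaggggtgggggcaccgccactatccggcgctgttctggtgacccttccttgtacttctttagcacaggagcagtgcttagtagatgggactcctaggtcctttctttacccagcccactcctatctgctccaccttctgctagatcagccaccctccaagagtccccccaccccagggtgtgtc

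The window of Itgb5 holds 3 GC boxes, that of Lamb1 holds 2, those of Itgb1 and Itga4 hold 1 each, and that of Itgb7 holds 0. RefSeq windows were matched for 24 of the 38 genes, giving 27 windows. A GC box lay in 10 of the 27 (37% against 32.7% of 32851 windows of all genes), GATAA on either strand in 2 (7.41% against 22.6%) and TATAAA in 0 (against 12.4%). The median number of CpG dinucleotides was 6 in the 27 windows and 6 in all windows. For a split by level, each gene was given its window richest in CpG, unlike the medians over all windows. The 10 matched genes that reached 50 CPM in a library had a median of 16 CpG (3 to 22). The 14 below 50 CPM had a median of 5 (0 to 18). Itga6, Lama1, Lama4 and Lamc1 also reached 50 CPM and had no matched window. The split by level was not made over all genes, so it is not shown to be particular to laminins and integrins. A match of letters is a description of these windows, and no match says only that the letters are not there.

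The laminin α chains largely decide which receptors a laminin binds, and their make-up was not the same on all days. Lama5, the α5 chain of most mature basement membranes, was at 519 CPM in WT on day 0 and at 725, 705, 625, 360 and 447 CPM on days 5, 6, 7, 8 and 10. In RepB it was at 490 CPM on day 0 and at 519, 469, 550, 345 and 430 CPM on the same days. In both lines the lowest level came on day 8. Its mean over days 5 to 10 was 572 ± 162 CPM in WT and 463 ± 80.2 CPM in RepB (SD over the 5 days). Lama5 passed neither test of change over time: its log2 difference from day 0 was 0.06 (adjusted p = 0.684) and its slope was -0.10 per day (adjusted p = 0.101).

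Lama1, the α1 chain of the embryonic trimer, traced a U in both lines. It was at 100.3 CPM in WT on day 0 and at 16.3, 19.0, 33.5, 69.2 and 244 CPM from day 5 to day 10. RepB had 129 CPM on day 0 and 12.5, 20.9, 30.7, 117 and 318 CPM later. Both lines were thus lowest on day 5 and highest on day 10. As a mean over days 5 to 10 it fell by 1.19 ± 0.15 (SE, log2) against day 0 (adjusted p = 2.34e-05), and within those days it rose by 0.92 ± 0.06 log2 units per day (adjusted p = 2.62e-06). Without day 10 the difference of the mean was -1.84 (adjusted p = 7.07e-06). In a fit with no term for day the lower mean was not called.

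Lama4, the α4 chain typical of vessel walls and mesenchyme, stepped up between days 6 and 7. In WT it was at 14.4 CPM on day 0, then at 2.76, 4.03, 33.9, 42.6 and 55.6 CPM. In RepB it was at 13.1 CPM on day 0, then at 2.64, 3.73, 39.3, 113 and 86.5 CPM. The 4 libraries of days 5 and 6 all lay below both day 0 libraries, and the 6 libraries of days 7 to 10 all lay above them. Its slope over days 5 to 10 was 1.04 ± 0.23 log2 units per day (adjusted p = 0.00307; without day 10, 1.77 and 0.000282), and its difference of the mean from day 0 was not called (0.50, adjusted p = 0.0729).

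The remaining α chains were minor. Lama3, the α3 chain of epithelial anchoring laminin, had 10.2 CPM (WT) and 13.9 CPM (RepB) on day 0 and was at 0.28 to 7.02 CPM in the 10 later libraries, where the mean fell by 1.95 ± 0.21 log2 units (adjusted p = 6.95e-06). Lama2, the α2 chain of muscle and nerve, was at 3.08 and 4.00 CPM on day 0 and at 0.06 to 5.61 CPM later, and the mean fell by 2.13 ± 0.35 (adjusted p = 0.000182). The RepB library of day 10 lay above both day 0 libraries of Lama2.

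As shares of all laminin α RNA per kilobase, Lama5 made up 76.2% in WT and 71.1% in RepB on day 0. On day 5 it made up 96.1% and 95.1%, and on day 10 only 52.6% and 43.7%. Over the same days the Lama1 share went from 17.6% through 2.6% to 34.3% in WT, and from 22.4% through 2.7% to 38.6% in RepB. Lama4 peaked on day 8, with 15.3% in WT and 30.4% in RepB. The summed level of the 5 α genes on day 10 was 74.6 CPM per kb in WT and 86.4 in RepB, against 59.8 and 60.5 on day 0.

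**Figure D1:**
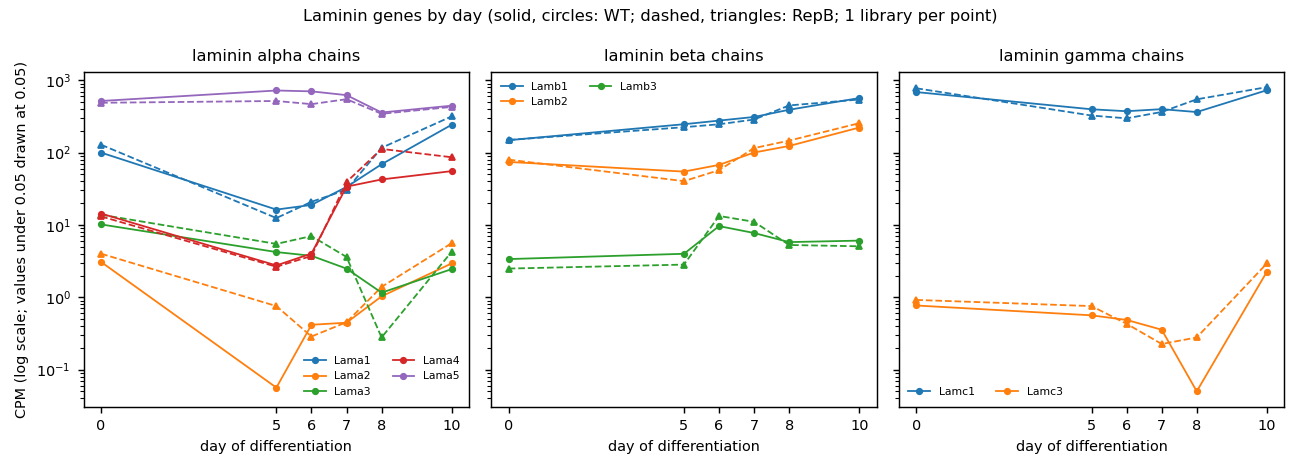
CPM of 10 laminin genes (log axis) against day, in panels for α, β and γ chains; each point is 1 library, with circles and solid lines for WT and triangles and dashed lines for RepB. Lama1 falls to 16.3 and 12.5 CPM on day 5 and reaches 244 and 318 CPM on day 10, while Lamb1 climbs from about 150 CPM in both lines to 570 and 544 CPM.

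The β and γ chains were less varied. Lamb1, the β1 chain, was at 149 CPM in WT on day 0 and at 248, 278, 312, 393 and 570 CPM from day 5 on. In RepB it was at 150 CPM, then at 225, 247, 288, 450 and 544 CPM. Every later library lay above both day 0 libraries. Lamb1 was higher by 1.24 ± 0.11 log2 units after day 0 (adjusted p = 1.55e-06) and rose by 0.29 ± 0.03 per day (adjusted p = 2.26e-05). Lamb2, the β2 chain of kidney and muscle laminin, was at 74.5 and 80.1 CPM on day 0, at 54.8 and 40.4 CPM on day 5 and at 223 and 256 CPM on day 10. Its slope was 0.50 ± 0.04 per day (adjusted p = 6.42e-06). Its mean was called higher than on day 0 (0.45 ± 0.14, adjusted p = 0.0133), a call that rested on day 10 (0.13 and adjusted p = 0.474 without it; 0.68 and 0.000508 without day 5).

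Lamc1, the γ1 chain, was lower on day 5 than on day 0 in both lines and back near its day 0 level on day 10. It was at 689 CPM in WT on day 0 and at 398, 375, 400, 365 and 731 CPM later. In RepB it was at 778 CPM, then at 326, 299, 366, 547 and 806 CPM. The mean fell by 0.67 ± 0.15 log2 units against day 0 (adjusted p = 0.00161), and the slope from day 5 on was 0.26 ± 0.05 (adjusted p = 0.000831). Without day 10 the slope was 0.15 (adjusted p = 0.14).

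Lamb3, a β chain of epithelial laminin, was at 3.37 and 2.49 CPM on day 0 and peaked on day 6 at 9.65 and 13.3 CPM (rise of the mean 1.24 ± 0.24, adjusted p = 0.000649). Lama3, the α chain of epithelial laminin, moved the opposite way, as given above. Of 6 epithelial markers tested, 5 were called higher and 0 lower after day 0, against 31.7% and 32.3% of all genes. Within days 5 to 10, 1 of these 6 markers rose and 3 fell, against 27.9% and 26.6% of all genes. Their part in these changes was not tested.

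Within their classes, Lamb1 supplied 63.6% to 83.2% of β chain RNA per kilobase and Lamc1 83.6% to 97.9% of γ chain RNA over the 12 libraries.

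**Figure D2:**
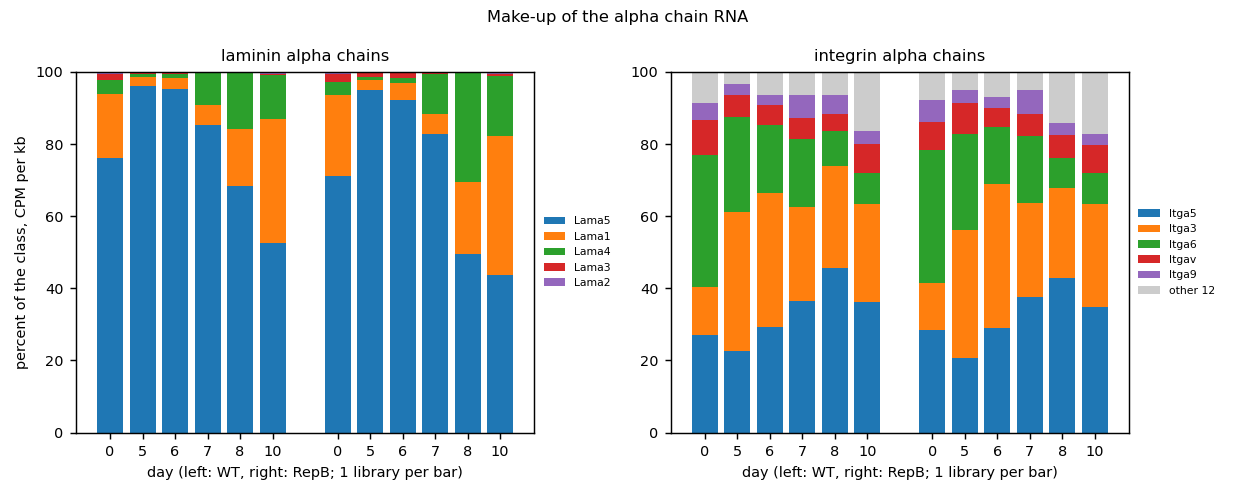
Stacked bars of the share (percent of the class, from CPM per kb) of each laminin α chain and of the 5 leading integrin α chains in each library, with WT on the left and RepB on the right of each panel. The Lama5 share is 96.1% and 95.1% on day 5 and 52.6% and 43.7% on day 10, and the Itga6 share shrinks from 36.6% and 37.0% on day 0 to 8.4% and 8.6% on day 10.

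Among the laminin-binding integrin α chains, Itga6 fell and Itga3 rose after day 0. Itga6, the α6 chain long used as a stem cell surface marker, was at 217 CPM in WT on day 0 and at 150, 132, 139, 72.5 and 82.3 CPM later. In RepB it was at 222 CPM, then at 123, 100, 131, 65.1 and 88.4 CPM. All 10 later libraries lay below both day 0 libraries, and the mean fell by 1.01 ± 0.10 log2 units (adjusted p = 2.71e-06). Itga3, the α3 chain, was at 68.5 CPM in WT on day 0 and at 194, 226, 169, 184 and 233 CPM later. RepB had 68.5 CPM, then 143, 220, 160, 175 and 256 CPM. Every later library was at least 2-fold above day 0, and the rise of the mean was 1.56 ± 0.13 (adjusted p = 4.65e-07).

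Itga7, the α7 chain of muscle, had a U shape like that of Lama1. It was at 10.2 and 9.13 CPM on day 0, at 1.80 and 1.51 CPM on day 5 and at 16.9 and 16.6 CPM on day 10. The mean fell by 0.76 ± 0.17 (adjusted p = 0.00204), and the slope was 0.72 ± 0.08 per day (adjusted p = 3.69e-05). Without day 5 the mean was lower by a log2 difference of -0.38 (adjusted p = 0.0791), and without day 10 by -1.17 (adjusted p = 0.000433). Itgb4, which pairs with α6 in hemidesmosomes, was at 13.7 and 11.6 CPM on day 0 and at 6.12 to 10.7 CPM later, and the mean fell by 0.47 ± 0.15 (adjusted p = 0.0166; with DESeq2, -0.51 and 0.0722).

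The common partner Itgb1 was at 333 CPM in WT on day 0 and at 474, 559, 577, 624 and 976 CPM later. RepB had 294 CPM, then 522, 633, 590, 718 and 983 CPM. It was higher than on day 0 in all 10 later libraries, by 1.11 ± 0.10 log2 units of the mean (adjusted p = 1.38e-06), and its slope was 0.21 ± 0.03 per day (adjusted p = 8.13e-05). Itgb1 supplied 66.8% to 82.9% of integrin β RNA per kilobase.

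Receptors of fibronectin and related ligands were next. Itga5, the α5 chain of the main fibronectin receptor, was at 117 CPM in WT on day 0, then at 93.6, 148, 196, 247 and 256 CPM. RepB had 123 CPM, then 69.5, 132, 191, 249 and 260 CPM. Both day 5 libraries lay below day 0 and the others above it; the mean rose by 0.57 ± 0.11 (adjusted p = 0.000823) and the slope was 0.35 ± 0.06 (adjusted p = 0.000549). The slope was 0.23 without day 5 (adjusted p = 0.0053) and 0.56 without day 10 (adjusted p = 0.000123).

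Itga4, the α4 chain that binds fibronectin and Vcam1 and marks mesoderm and blood cells, had low levels up to day 6 and much higher ones on day 10. In WT it was at 1.01 CPM on day 0, then at 1.41, 0.56, 4.89, 9.53 and 70.0 CPM. In RepB it was at 1.71 CPM, then at 1.32, 0.72, 4.52, 45.1 and 73.7 CPM. The day 6 libraries were the lowest and the day 10 libraries the highest in both lines. The slope was 1.33 ± 0.16 log2 units per day (adjusted p = 6.63e-05), and the mean was higher than on day 0 by 2.28 ± 0.49 (adjusted p = 0.00148). Without day 10 the slope was 1.55 (adjusted p = 0.00292) and the difference of the mean 1.38 (adjusted p = 0.0349).

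Itgav, the αv chain that pairs with several β chains, was at 67.4 and 53.4 CPM on day 0, at 38.8 to 60.1 CPM on days 5 to 8 and at 93.5 and 92.9 CPM on day 10 (slope 0.25 ± 0.04, adjusted p = 0.000618; without day 10, 0.12 and adjusted p = 0.17). Its partner Itgb5, of the vitronectin receptor, was at 56.5 and 62.6 CPM on day 0 and at 200 and 190 CPM on day 10, with its peak on day 8 at 206 and 221 CPM. The mean of Itgb5 rose by 1.25 ± 0.15 (adjusted p = 1.11e-05) and its slope was 0.32 ± 0.06 (adjusted p = 0.00125; without day 10, 0.51 and 0.000503). Itgb8, another αv partner, was at 0.12 and 0.07 CPM on day 0, both under the level of 3 counts, and at 1.32 to 7.25 CPM in the 10 later libraries (adjusted p = 9.94e-06).

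Itga8, an RGD-binding chain of mesenchyme, was at 3.02 CPM in WT on day 0, then at 3.77, 23.7, 18.6, 7.47 and 31.7 CPM. RepB had 3.41 CPM, then 4.15, 23.9, 14.0, 16.1 and 35.8 CPM. Both lines stepped up between days 5 and 6, and the mean rose by 2.21 ± 0.26 (adjusted p = 1.12e-05). Itga9, which binds tenascin and other ligands, was at 32.8 and 44.4 CPM on day 0 and was highest on day 7, at 56.8 and 53.3 CPM; its slope of 0.23 ± 0.09 (adjusted p = 0.0491) lost its call without day 5, 6 or 8 (0.13, 0.18 and 0.23; adjusted p = 0.38, 0.179 and 0.0827), with RLE size factors (adjusted p = 0.0503) and with no low-count filter (adjusted p = 0.0553). Without day 10 it was 0.46 (adjusted p = 0.0216). Of the collagen receptors, Itga1 stayed between 1.35 and 6.11 CPM until day 8 and was at 23.2 and 22.2 CPM on day 10. Its slope of 0.54 ± 0.13 (adjusted p = 0.00505) rested on day 10: without it the slope was -0.14 (adjusted p = 0.59), and the higher mean after day 0 (1.04 ± 0.29, adjusted p = 0.0067) became 0.48 (adjusted p = 0.229). Itga10, the α10 collagen receptor of cartilage, was at 2.19 and 2.17 CPM on day 0, at 1.01 and 0.57 CPM on day 5 and at 2.75 and 2.14 CPM on day 10. Its slope of 0.31 ± 0.08 (adjusted p = 0.00808) lost its call without day 5 (0.24, adjusted p = 0.0774) and without day 10 (0.39, adjusted p = 0.0772). Itga2, the α2 collagen receptor, was at most 1.87 CPM and was not called against day 0. Its slope was not tested after the low-count filter, and with no such filter it was among the rising genes.

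**Figure D3:**
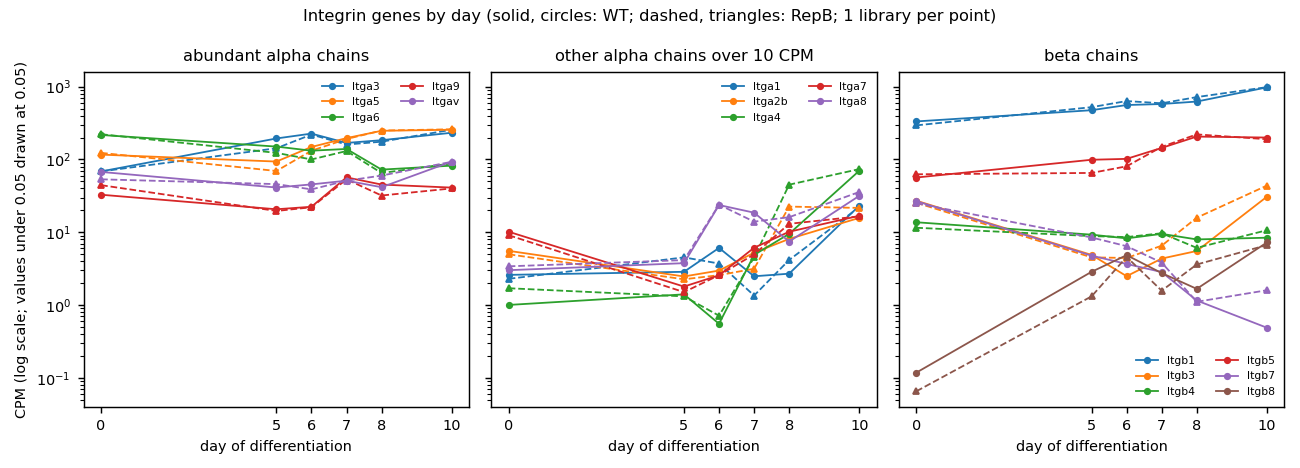
CPM of the integrin genes (log axis) against day, in panels for abundant α chains, other α chains and β chains; each point is 1 library, with circles and solid lines for WT and triangles and dashed lines for RepB. Itga4 climbs from 0.56 and 0.72 CPM on day 6 to 70.0 and 73.7 CPM on day 10, and Itgb7 drops from 26.8 and 25.01 CPM on day 0 to 0.49 and 1.60 CPM on day 10.

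Integrins known from leukocytes and platelets were also present. Itgb7, the β7 chain of gut-homing lymphocytes, was at 26.8 CPM in WT on day 0, then at 4.78, 3.68, 2.85, 1.16 and 0.49 CPM. RepB had 25.01 CPM, then 8.49, 6.45, 3.84, 1.11 and 1.60 CPM. Its mean fell by 3.27 ± 0.17 log2 units against day 0 (adjusted p = 1.01e-08). It was the 1 gene of the 26 tested with a falling slope, and it fell by 0.60 ± 0.09 per day (adjusted p = 0.000249). Itgal, the α chain of the leukocyte receptor LFA-1, was at 7.93 and 6.96 CPM on day 0 and at 0.13 to 2.40 CPM later; its mean fell by 3.13 ± 0.29 (adjusted p = 1.35e-06).

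The partner of Itgal in leukocytes, Itgb2, was at 0.06 and 0.26 CPM on day 0 and at 0.45 to 2.67 CPM later (adjusted p = 0.000945). Of the leukocyte markers, Ptprc, which encodes the common leukocyte antigen CD45, had no count in either day 0 library and was at most 0.80 CPM in any. The sum of the 7 leukocyte markers in the table was 38.3 and 28.0 CPM on day 0, of which Cd68 gave 31.7 and 19.9 CPM. Coro1a gave 6.22 and 7.75 CPM of it, and was at 15.4 and 9.06 CPM on day 5. Csf1r was at 0.12 and 0 CPM on day 0 and at 7.84 and 9.88 CPM on day 10. Cd68 (9.12 and 7.74 CPM) and Coro1a (2.06 and 3.74 CPM) were lower on day 10 than on day 0. Itgae, which pairs with β7, was at 3.91 and 2.89 CPM on day 0 and at 0 to 1.89 CPM later, and its mean fell by 2.74 ± 0.41 (adjusted p = 8.88e-05). Itgam, a myeloid α chain, was at 2.13 and 1.84 CPM on day 0 and at 0.23 to 1.89 CPM later, and its mean fell by 1.44 ± 0.37 (adjusted p = 0.00429; with DESeq2, -1.52 and 0.0648).

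Itgb3, the β3 chain of the platelet fibrinogen receptor and of a vitronectin receptor, was at 27.2 CPM in WT on day 0, then at 4.90, 2.50, 4.36, 5.54 and 30.8 CPM. RepB had 25.5 CPM, then 4.53, 4.44, 6.55, 15.9 and 43.8 CPM. The mean fell by 1.66 ± 0.18 (adjusted p = 7.71e-06), and the slope from day 5 on was 0.67 ± 0.09 (adjusted p = 0.00016; without day 10, 0.37 and adjusted p = 0.0858). Its platelet partner Itga2b was at 5.57 and 4.99 CPM on day 0, at 2.48 and 2.27 CPM on day 5 and at 15.8 and 21.6 CPM on day 10 (slope 0.68 ± 0.11, adjusted p = 0.000411). The 6 platelet and megakaryocyte markers summed to 0 to 3.06 CPM up to day 8 apart from these genes, and to 7.35 and 16.0 CPM on day 10.

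Over all 33 tested genes, 13 were higher on days 5 to 10 than on day 0 (39.4%) and 12 were lower (36.4%). Of all 15179 genes tested, 31.7% were called higher and 32.3% lower, so the shares among these genes were near the background. The median log2 difference was 0.06, against 0.01 for all genes. The spread in this test is that of the difference between lines over days, and the spread between days is left out. With no term for day, 6 were called higher and 4 lower. Over all 15179 genes that fit called 3871 in either direction, in place of 4819 higher and 4905 lower. Among the laminin and integrin genes, the higher calls lost were those of Itga1, Itga4, Itga5, Itga8, Itgb5, Lamb2 and Lamb3. The lower calls lost were those of Itga7, Itgam, Itgb3, Itgb4, Lama1, Lama2, Lama3 and Lamc1. By class, 4 of 11 laminins were higher and 4 lower, and 9 of 22 tested integrins were higher and 8 lower.

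Within days 5 to 10, 16 of 26 tested genes had a rising slope (61.5%) and 1 had a falling slope (3.85%). Among all 12948 genes tested, 27.9% rose and 26.6% fell. The median slope was 0.27 log2 units per day, against 0 for all genes. The rising genes were 5 of 9 tested laminins and 11 of 17 tested integrins. Of the rising genes, 7 were also higher than on day 0 (Itga1, Itga4, Itga5, Itgb1, Itgb5, Lamb1 and Lamb2), and 4 were lower as a mean (Itga7, Itgb3, Lama1 and Lamc1), the slopes of Itgb3 and Lamc1 resting on day 10 as given above. The sum of the fibroblast and feeder markers given above also dipped on day 5 and was highest on day 10. Not every marker did so: Thy1 fell from 107 and 122 CPM on day 0 to 4.51 and 6.14 CPM on day 10. Taken singly, 7 of 8 tested markers had a rising slope and 1 a falling slope. Against day 0, 1 of 9 was higher and 4 were lower. Primitive and parietal endoderm markers were led by Gata6, Dab2, Gata4 and Pdgfra. They summed to 48.1 and 43.6 CPM on day 0, 72.7 and 133 CPM on day 5, and 1004 and 1024 CPM on day 10. Fst gave 29.5 and 96.8 CPM of the day 5 sums, against 2.72 and 3.02 CPM on day 0. Among the leaders, Dab2 was higher on day 5 (21.9 and 12.5 CPM, from 7.22 and 6.37). Gata6 (1.74 and 1.51 CPM, from 3.85 and 3.02), Gata4 (2.25 and 3.02, from 14.9 and 11.95) and Pdgfra were lower. The part of these cell types in the slopes was not tested.

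Other genes of the same biology were counted from fixed lists. For comparison, 31.7% of all genes were higher and 32.3% lower against day 0, and 27.9% rose and 26.6% fell. Of 11 tested basement membrane partners, 7 were higher (63.6%) and 2 lower (18.2%) against day 0. Within days 5 to 10, 6 rose (54.5%) and 0 fell. Col4a1, a chain of the collagen IV network, went from 222 and 244 CPM on day 0, through 149 and 83.6 CPM on day 5, to 974 and 1079 CPM on day 10. Sparc, a collagen-binding protein, had the values 343 and 366, 250.2 and 244, and 1990 and 2416 CPM on those days. Hspg2, which encodes perlecan, passed neither test. Of 14 tested ligands of other integrins, 2 were higher and 7 lower against day 0, and of 10 tested for a slope 6 rose and 2 fell. Fn1, the fibronectin gene, was at 3083 and 3015 CPM on day 0, 885 and 817 CPM on day 5, and 5209 and 6065 CPM on day 10. Spp1, the osteopontin gene, was at 598 and 615 CPM on day 0 and 9.80 and 16.8 CPM on day 10. Of the 28 adaptors and signalling genes that join integrins to actin, 13 were higher (46.4%) and 9 lower (32.1%) against day 0. Of 26 tested for a slope, 18 rose (69.2%) and 2 fell (7.69%). Zyx, the zyxin gene, was at 79.6 and 84.3 CPM on day 0 and at 335 to 567 CPM later.

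Whether the RepB line differed from WT was asked over days 5 to 10. By edgeR's test 0 of 33 genes were called, against 2.28% of all 15179 genes, and 8 of 33 had an unadjusted p under 0.05, against 2271 of all 15179 genes (15%). DESeq2 and limma-voom also called 0. The smallest adjusted p was that of Itgb7 (0.74 ± 0.21 log2 units higher in RepB, higher on 4 of 5 days, adjusted p = 0.0955). Itgb3 was at 0.68 ± 0.20 (4 of 5 days, adjusted p = 0.119), Itgb2 at 1.24 ± 0.39 (5 of 5 days, adjusted p = 0.142) and Lama4 at 0.62 ± 0.20 (3 of 5 days, adjusted p = 0.147). Lama5 was at -0.25 ± 0.10, lower in RepB on all 5 days (adjusted p = 0.256). Without day 8, Itgb7 and Lama5 were called, so 2 genes in place of 0. Over all genes, leaving out day 8 gave 744 calls among 15393 tested, in place of 346 among 15179. The median difference was 0.13, with 22 of 33 above 0, against a median of 0 for all genes.

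Less the difference at day 0, the contrast between lines called 0 of 33 genes, with 3 at an unadjusted p under 0.05, by edgeR and likewise 0 by DESeq2 and limma-voom. All genes gave 0.0329% called and 8.86% at an unadjusted p under 0.05. The slopes of the lines differed for 0 of 26 genes by edgeR, DESeq2 and limma-voom, with 0 at an unadjusted p under 0.05, where all 12948 genes gave 0% called and 200 genes at an unadjusted p under 0.05. Of the partner lists, Spp1 was higher in RepB (0.58 ± 0.13, adjusted p = 0.0408). No basement membrane partner (0 of 11) or adaptor (0 of 28) was called by edgeR, with 2 and 4 at an unadjusted p under 0.05; other tools were not run for these lists.

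On single days there is 1 library per line and no test. Genes at 5 CPM or more in either library were compared, and a 2-fold difference, a size chosen with the values known, was counted. On days 0, 5, 6, 7 and 10 none of 21, 16, 19, 20 and 24 compared genes differed by 2-fold in either direction, where 0.799%, 1.56%, 2.42%, 1.71% and 1.88% of all genes did. On day 8, 5 of 21 did, all higher in RepB (23.8%), where 5.35% of 11301 genes differed in either direction and 2.65% were higher in RepB.

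Those 5 were Itga4, Itgb3, Itga2b, Lama4 and Itga8. Itga4 was 4.73 times as high in RepB as in WT on day 8 (exact 95% counting interval 3.57 to 6.31), from 45.1 against 9.53 CPM. Itgb3 was 2.86 times as high (1.89 to 4.36) and Itga2b 2.78 times (1.97 to 3.92). Lama4 was 2.64 times as high (2.28 to 3.07) and Itga8 2.16 times (1.47 to 3.16). The intervals cover counting error only and say nothing of another culture. Lama1 (1.69, 1.48 to 1.92) and Lamc1 (1.5, 1.42 to 1.59) were also higher in RepB. Itga9 was lower in RepB (0.708, 0.568 to 0.876).

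On day 10 the gap for Itga4 was 1.05 times (0.913 to 1.21), for Lama4 1.56 (1.35 to 1.79), for Itgb3 1.42 (1.17 to 1.72), for Itga2b 1.37 (1.04 to 1.80) and for Itga8 1.13 (0.917 to 1.39). On day 7 Itga4 was under 5 CPM in both libraries, and none of the other 4 lay 2-fold apart. Itgb1 (1.15, 1.10 to 1.21) and Itga5 (1.01, 0.930 to 1.09) were close in the 2 lines on day 8.

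The sums of 6 of the 10 marker lists were higher in RepB on day 8. The 10 fibroblast markers summed to 3026 CPM in RepB and 1513 CPM in WT, with Fap at 0 in both. The 8 visceral endoderm markers summed to 147 and 48.9 CPM, the 6 endothelial markers to 235 and 112 CPM (Emcn at 0 in WT), and the 6 platelet markers to 3.06 and 0.39 CPM, with Ppbp, Gp9 and Gp6 at 0 in both. Those of primitive and parietal endoderm were 644.3 and 477.4 CPM and those of naive ES cells 519.7 and 399.9 CPM. The other 4 sums were lower in RepB: cardiac and skeletal muscle at 35.05 against 73.03 CPM, neural ectoderm at 62.87 against 102.3 CPM, epithelium at 2960 against 3230 CPM and leukocytes at 12.52 against 13.91 CPM. The day 8 RepB library was the shallowest, with the lowest TMM factor (0.938). On TMM-scaled values the 5 ratios were 5.03, 3.05, 2.95, 2.81 and 2.30. The part of cell types in the day 8 values was not tested.

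**Figure D4:**
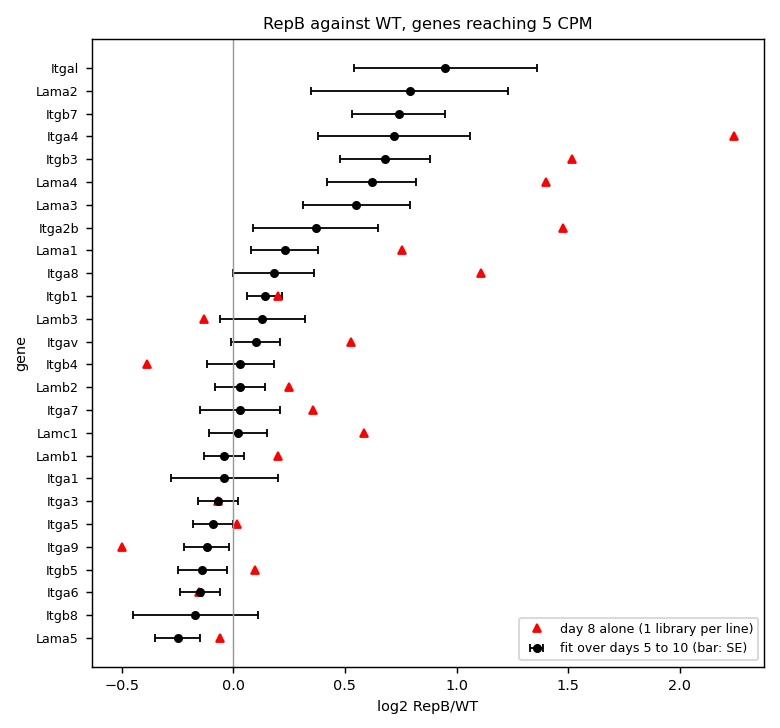
Log2 of the RepB to WT ratio for 26 genes that reached 5 CPM: black points are fitted over days 5 to 10 with bars of 1 SE, and red triangles are day 8 alone (1 library per line, genes at 5 CPM or more). The triangles of Itga4, Itgb3, Itga2b, Lama4 and Itga8 lie past 1 (2-fold), while none of the fitted values passed the test.

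Separate columns of the deposited table count reads assigned to an allele called cas or mus, taken to stand for CAST/Ei and 129/Sv/Jae. With at least 100 allelic counts over the 12 libraries, 9 genes carried both alleles (Itga1, Itga2b, Itga3, Itga8, Itga9, Itgb3, Itgb4, Lama5 and Lamb2, with 34.5% to 52.3% cas) and 16 were mostly mus (0.3% to 14.6% cas). The other 13 had fewer counts. For 15 of these 16 the median gene within 2 Mb, a distance chosen after seeing the values, was itself at 0.5% to 1.1% cas: 20 of the 21 neighbours of Lamc1 and all 16 of Lamb1 were under 25%. There the share of a gene cannot be told apart from that of its region. For all 9 genes with both alleles the median neighbour was at 43.0% to 51.2%.

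Itgb1 was 0.5% cas (100 of 19381 counts), although the median gene of its chromosome 8 was at 55.0%; of its 4 neighbours within 2 Mb, 3 were under 25%. Itgal was the exception among the 16. It was 14.6% cas over all libraries, while 77 of its 79 neighbours on chromosome 7 lay between 25% and 75%. On day 0 it was 11.1% cas in WT (6 of 54 counts, exact 95% interval 4.2 to 22.6) and 14.6% in RepB (6 of 41 counts, 5.6 to 29.2).

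Allelic shares differed between days for some genes. Itga8 was 10.0% cas in WT on day 0 (2 of 20 counts, 1.2 to 31.7) and 0% in RepB (0 of 21 counts, which allows up to 16.1%), against 31.0% to 54.5% on the later days. Itga3 was 35.3% in WT (31.1 to 39.7) and 30.2% in RepB (25.9 to 34.8) on day 0. On day 5 it was 35.4% (33 to 38) in WT and 40.5% (34.9 to 46.4) in RepB. By day 10 it was 52.1% (48.9 to 55.3) and 55.1% (50 to 60). The intervals of day 0 and day 10 did not overlap in either line. Lama5 was 51.5% (49.5 to 53.5) in WT and 49.4% (47.3 to 51.5) in RepB on day 0, 46.8% (45.2 to 48.3) in WT and 50.1% (46.7 to 53.5) in RepB on day 5, and 58.6% (55.9 to 61.2) and 61.3% (56.7 to 65.8) on day 10. Feeder fibroblasts were present in the culture before differentiation, and the part of their RNA in the day 0 shares was not tested. The shares are given for each line, and the difference between lines was not tested.

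**Figure D5:**
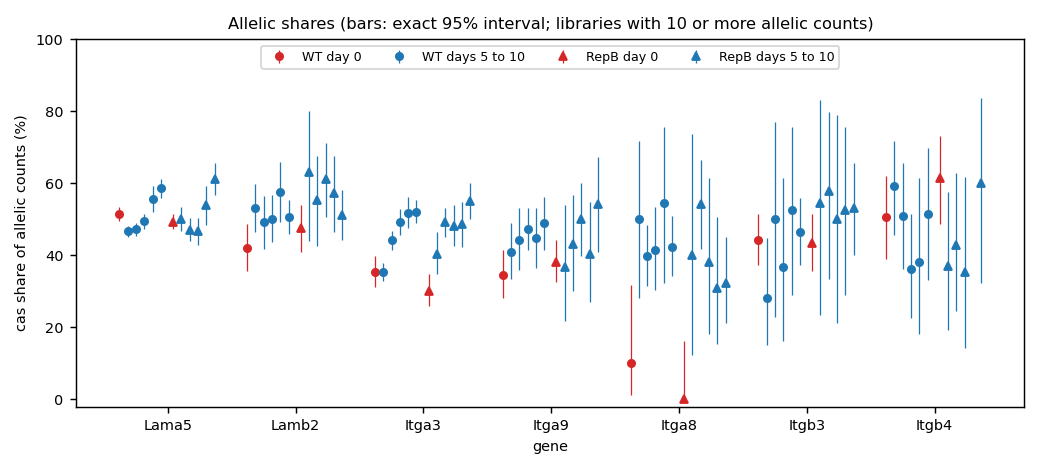
Share of cas counts among allelic counts (percent, from 0) for 7 genes that carry both alleles; each point is 1 library in day order, red for day 0 and blue for days 5 to 10, circles for WT and triangles for RepB, with exact 95% intervals. Itga8 sits at 10.0% and 0% on day 0 and between 31.0% and 54.5% later, and the Itga3 share goes from 35.3% and 30.2% to 52.1% and 55.1% on day 10.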

How the data were processed

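The authors deposited counts per gene, without normalization, for polyA RNA-seq of 12 libraries, with separate counts for cas and mus alleles and, as the other unit, gene length in bases (exons added up). The submitters' processing notes name the build mm9 and the tools featureCounts, TopHat, Novoalign, bedtools and SAMtools, with no versions or roles; the strand setting of the counting is not given in the sources used here, so genes overlapping on opposite strands are uncertain. A further 6 count columns with no matching sample, and 21 ChIP and input samples, were not used. In 27 rows the name had become a date, and 2 names were duplicated.

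Counts were fitted in R 4.3.3 with edgeR 4.0.16 (TMM, filterByExpr, quasi-likelihood F test) with Benjamini-Hochberg adjustment over all genes. In the 12-library fit, day was a factor, with a RepB effect at day 0 and over days 5 to 10 (4 residual degrees of freedom). Slopes were fitted to 10 libraries (7 degrees of freedom; 6 with a slope per line). The common dispersion was 0.015. The test against day 0 uses the spread of the line difference over days. Genes were described in full at 5 CPM in any library or when called. From each gene list up to 4 genes by highest mean CPM, and those called between lines, could be named. Outside this rule, all 6 naive ES cell markers and Ptprc, Thy1, Fap, Fst, Emcn and Gp6 were also named. Alternatives were RLE size factors, no low-count filter, DESeq2 1.42.0, limma-voom (limma 3.58.1), counts thinned to the smallest library, each later day left out, no day term and a single RepB effect. Exact Clopper-Pearson intervals (scipy 1.17.1) cover counting error only. The genes and lists were chosen with earlier results of these data known. One of the genes is not reported here by name.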

Additional observations from a re-analysis of the deposited data

How the results depend on the processing

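Of the 25 genes called against day 0, 9 kept their call under every alternative (5 higher, 4 lower; Itgb2 was not tested after thinning) and 19 under all but the fit with no day term, which called 6 higher and 4 lower; leaving out 1 day gave 11 to 14 higher and 11 to 13 lower, and all 25 lay on the called side in WT alone and in RepB alone, without a test. Of the 17 genes with a slope, 11 kept their call under every alternative; leaving out 1 day gave 11 to 19 rising and 1 to 2 falling, and 2 were falling with no low-count filter, with DESeq2 and with limma-voom (Itga6 besides Itgb7). Without day 10 the slope of Itga1 was -0.14, and it reached 0.66 without day 5. Between lines, 2 genes were called with no low-count filter (Itgb3 and Lama4), and 0 to 2 when 1 day was left out (2 without day 8). Over all genes, the 346 calls between lines became 592 with no filter, 50 with 1 effect over all 6 days, 0 with no day term, and 216, 81, 38, 744 and 134 without days 5, 6, 7, 8 and 10; the 4819 higher and 4905 lower calls against day 0 became together 3871 with no day term. The cause was not tested. Under TMM scaling 25 of 324 CPM values left their counting interval. Depth limits genes near 3 counts, above all in the RepB libraries.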
